A study of Mus musculus with 95 samples.

Results

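The immediate early genes are switched on within minutes of a stimulus without any need for new protein synthesis. The 9 described here are Fos, Fosb, Jun, Junb, Egr1, Ier2, Dusp1, Nr4a1 and Klf6, found by gene symbol among the 20638 genes of the deposited count table. Their messenger RNA was measured by RNA-seq in 95 libraries of islets of Langerhans, where the pancreas makes insulin and glucagon. The mice belonged to the founder strains of the Diversity Outbred (DO) population and ate a high-fat, high-sugar diet, labelled 45% fat in each case. The labels give neither strain, sex, age nor animal per library, so the libraries form 1 set, no groups are compared, and each library is called by its number, from 1 to 100 with 5 numbers not present. Whether every library came from its own animal is not stated, and p-values measure only the spread between these libraries.

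Calcium entry, cyclic AMP and growth factor signals reach these genes through kinases that act on factors already bound at their promoters, mainly CREB at cyclic AMP response elements (CRE) and serum response factor at CArG boxes. Fos, Fosb, Jun and Junb encode subunits that pair to form AP-1, Egr1 and Klf6 encode zinc-finger transcription factors, Nr4a1 encodes an orphan nuclear receptor, Ier2 encodes a small nuclear protein, and Dusp1 encodes a phosphatase that switches off MAP kinases. In beta cells they are known to respond to glucose and to signals that raise cyclic AMP, and in many tissues they also respond to the handling of cells during isolation. The time between removal of the pancreas and lysis is not given in the labels used here.

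Library totals ran from 16411809 to 34357253 estimated counts, with a median of 26552738. The 8 hormone genes, Ins1 and Ins2 among them, took 6.82% to 26.6% of the counts of a library, and 18 digestive enzyme genes and other acinar markers took 0.257% to 40.9%. Macrophage markers took 0.0033% to 0.271% and lymphocyte markers 0.000636% to 0.204%. The highest lymphocyte and macrophage shares lay in libraries numbered above 90, and the members' slopes on Fos and on Egr1 are also given without them. In such bulk samples fewer cells of a type and less RNA per cell cannot be told apart.

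The promoters show what the genes share in sequence. RefSeq promoter entries (GRCm38.p6, 250 bases before to 50 bases after the start) were matched for 7 of the 9 genes. Egr1 and Ier2 had no entry. The 4 printed here belong to Fos and Dusp1, the pair with the highest Spearman's rho over all libraries, to Nr4a1, whose rho with Fos was the lowest of all pairs, and to Junb, which had a high rho with Nr4a1. Capitals mark the CRE letters TGACGTCA or the shorter TGACG, read on both strands, so that a complete element also holds the shorter one on each strand.
Fos (chr12:85473640-85473939, plus strand): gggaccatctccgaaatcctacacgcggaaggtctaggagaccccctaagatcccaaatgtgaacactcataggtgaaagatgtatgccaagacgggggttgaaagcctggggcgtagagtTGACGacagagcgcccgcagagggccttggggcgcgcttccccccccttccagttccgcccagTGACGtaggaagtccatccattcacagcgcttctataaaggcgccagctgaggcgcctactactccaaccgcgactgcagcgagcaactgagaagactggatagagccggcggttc
Dusp1 (chr17:26508423-26508722, minus strand): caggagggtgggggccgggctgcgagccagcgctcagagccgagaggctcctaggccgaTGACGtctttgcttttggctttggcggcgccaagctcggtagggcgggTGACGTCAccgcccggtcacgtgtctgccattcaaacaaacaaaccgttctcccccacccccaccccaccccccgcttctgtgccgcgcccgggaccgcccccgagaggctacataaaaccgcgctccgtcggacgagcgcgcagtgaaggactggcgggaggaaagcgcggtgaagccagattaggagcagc
Junb (chr8:84978699-84978998, minus strand): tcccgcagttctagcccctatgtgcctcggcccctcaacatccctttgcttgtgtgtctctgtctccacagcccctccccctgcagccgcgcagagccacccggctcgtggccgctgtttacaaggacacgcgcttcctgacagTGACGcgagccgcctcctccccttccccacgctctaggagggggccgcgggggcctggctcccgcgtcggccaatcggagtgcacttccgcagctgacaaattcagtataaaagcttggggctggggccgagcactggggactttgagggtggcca
Nr4a1 (chr15:101266596-101266895, plus strand): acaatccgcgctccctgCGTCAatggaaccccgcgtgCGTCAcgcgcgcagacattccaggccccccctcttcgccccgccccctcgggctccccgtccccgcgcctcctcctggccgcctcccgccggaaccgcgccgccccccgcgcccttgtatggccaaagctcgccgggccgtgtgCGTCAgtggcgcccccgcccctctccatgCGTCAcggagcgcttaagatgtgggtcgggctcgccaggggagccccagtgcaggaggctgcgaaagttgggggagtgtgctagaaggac
The Dusp1 promoter held the complete element 143 bases before the start, and the other 6 promoters held 0. The complete element was present in 1.79% of 32851 mouse promoters of this length. The shorter TGACG was present in Fos, Fosb, Junb, Dusp1 and Nr4a1, 5 of the 7, against 20.8% of all promoters. Nr4a1 held 4 copies, all read on the opposite strand as CGTCA, and Fos held 2, which began 129 and 66 bases before the start. The AP-1 letters TGANTCA, read on both strands and found in 7.81% of all promoters, had 0 matches in the 7, and so did the CArG box, found in 1.63%. A match, or its absence, is a description of letters in this window, and sites farther upstream were not searched.

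All 9 genes were abundant in every library. Levels are CPM, which are estimated counts scaled to a common library size with edgeR's TMM factors. Fos (chromosome 12, 85473890 to 85477273) had 496 CPM in library 32, a median of 2228 CPM and 4366 CPM in library 70. Fosb had 528 CPM in library 97, a median of 2081 CPM and 5226 CPM in library 96. Jun had 418 CPM in library 34, a median of 1241 CPM and 3167 CPM in library 70. The fourth AP-1 gene, Junb, had the lowest median of these 4. It had 201 CPM in library 78, a median of 957 CPM and 2203 CPM in library 96.

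Egr1 (chromosome 18, 34859823 to 34864984) had the highest median of the 9. Its level was 757 CPM in library 97, 2751 CPM at the median and 4190 CPM in library 96. Klf6 had the lowest, with 25.9 CPM in library 78, a median of 115 CPM and 604 CPM in library 95. Nr4a1 lay between them, with 101 CPM in library 34, a median of 453 CPM and 1781 CPM in library 30. The extremes therefore fell in few libraries: libraries 34 and 78 held the lowest value of 6 of the 9 genes, libraries 95 and 96 the highest of 5, and library 70 the highest of 3. Dusp1 had 177 CPM in library 34, a median of 415 CPM and 1191 CPM in library 70. Ier2 had 85.3 CPM in library 34, a median of 317 CPM and 671 CPM in library 95.

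Per kilobase of exon, which allows levels of different genes to be compared, the order changed. Fos was highest at a median of 947 CPM per kilobase and ranked 42 of 15790 genes with a length, and Klf6 was lowest at 26.1 CPM per kilobase and ranked 1141. Between them came Egr1 at 613, Junb at 416, Jun at 389, Fosb at 333, Ier2 at 208, Nr4a1 at 129 and Dusp1 at 125 CPM per kilobase. Fos was above Egr1 in 80 of 95 libraries and Dusp1 above Klf6 in 95 of 95. Neighbours in the order of medians were not separated in 2 places: Junb was above Jun in 40 libraries and Nr4a1 above Dusp1 in 35.

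The genes varied more between libraries than most genes did. The span between the 10th and 90th percentiles had a median of 1.71 log2 units over the 9, against 0.92 log2 units over the 15841 genes that passed a low-count filter (a CPM of 1 in at least 10 libraries), which all 9 passed. The span was widest for Nr4a1, 2.38 log2 units, and narrowest for Egr1, 1.43 log2 units. The biological coefficient of variation, edgeR's estimate of the spread beyond counting error, was above 50% for 2 of the 9, Nr4a1 at 65.6% and Klf6 at 58.9%. Of all kept genes 24.2% exceeded 50%, so that count does not set the 9 apart. The highest library exceeded the lowest 23.3-fold for Klf6, 17.6-fold for Nr4a1 and 5.54-fold for Egr1. Libraries with adjacent numbers were alike: the rho between a library's value and that of the next number ran from 0.454 for Egr1 to 0.616 for Nr4a1. Permutation p-values, which treat libraries as independent, are therefore too small. The same limit holds for the edgeR and DESeq2 tests of slopes given later, in which each library also counts as independent.

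**Figure D1:**
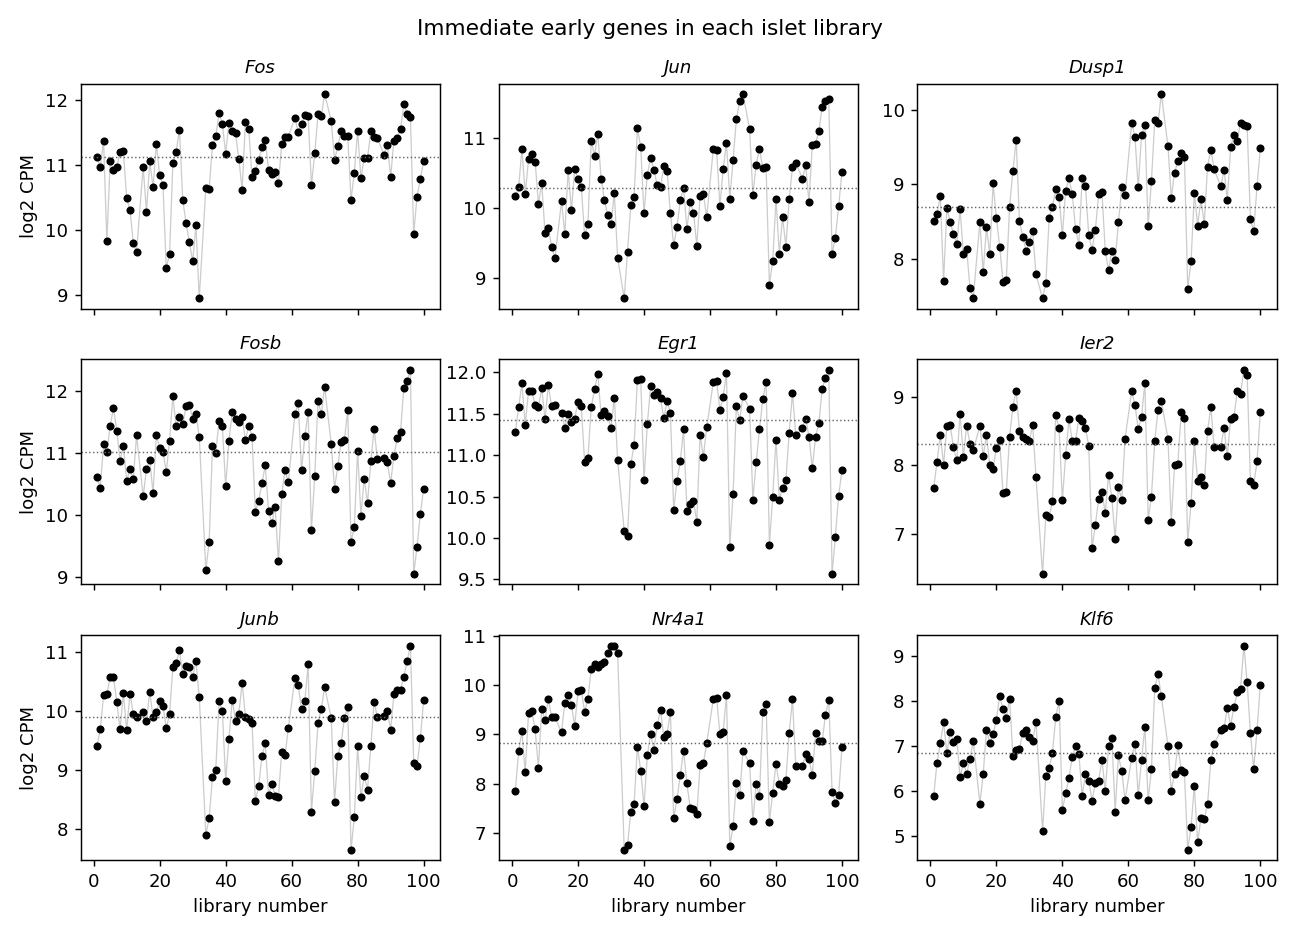
Level of each gene (log2 CPM, vertical axis) in each library, ordered by library number (horizontal axis). Points are libraries, the grey line joins adjacent numbers and the dotted line is the median; 4 of the 10 libraries with the most Nr4a1 are among the 10 with the least Fos.

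The genes were often high or low together. The summed level of the 9 was 4305 CPM in library 78, 10619 CPM at the median and 20738 CPM in library 96. As a share of unscaled counts, the 9 were lowest in library 54, at 0.296%, and highest in library 70, at 2.25%. Library 78 had 0.512% and library 96 had 1.82%, so the extreme libraries differ with the scaling. By CPM, 7 libraries had at least 5 of the 9 genes among those genes' own 10 highest values. Libraries 95 and 96 had 8 genes each there. In 5 libraries at least 5 genes were among their 10 lowest, with 8 genes in libraries 34 and 78. Only 4 libraries had genes on both sides, and 38 had none on either.

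Over the 36 pairs of genes the median Spearman's rho was 0.612, against -0.003 over all pairs of kept genes, of which 0.703% reached 0.612 or more. Of the 36, 35 were positive. By rho over all libraries Fos and Dusp1 were the closest pair, with a rho of 0.862 and an r of 0.798, each with a permutation p of 1e-05, the smallest that 100000 permutations can give (Benjamini-Hochberg adjusted over all genes, 0.000671 and 0.000204). Without the libraries farthest from the median of Fos, 22 and 32, r was 0.802. The rho was 0.854 in libraries numbered above 50 and 0.853 in those numbered 50 or lower. Junb and Ier2 were closer by r, at 0.876, with a spline of library number removed, at a rho of 0.943, and in libraries numbered above 50, at 0.941. Fos and Nr4a1 were the pair at the other end, with a rho of -0.0832 (permutation p 0.42, adjusted 0.612) and an r of -0.214 (permutation p 0.0363, adjusted 0.118), and an r of -0.144 without libraries 22 and 32. That value pools opposite relations, a rho of 0.673 in libraries numbered above 50 and of -0.471 in those numbered 50 or lower.

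Tested gene by gene against all kept genes, with adjusted permutation p under 0.05, the members passed together. With Fos, 5 of the 8 others had a positive rho that passed (Fosb, Jun, Egr1, Ier2 and Dusp1), against 9.55% of all kept genes. With Egr1, 8 of 8 passed, against 11.3%, with Fosb 8 of 8, against 11.6%, and with Ier2 8 of 8, against 13.4%. With Jun, 7 of 8 passed, against 4.28%, with Junb 7 of 8, against 18.3%, and with Dusp1 7 of 8, against 13%. With Nr4a1, 6 of 8 passed, against 23.2% of kept genes, and with Klf6 7 of 8, against 17.7%. In 31 of the 36 pairs the rho passed from both sides. Only 4 pairs passed from neither side, and those were Fos with Junb, Nr4a1 and Klf6, and Dusp1 with Nr4a1.

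**Figure D2:**
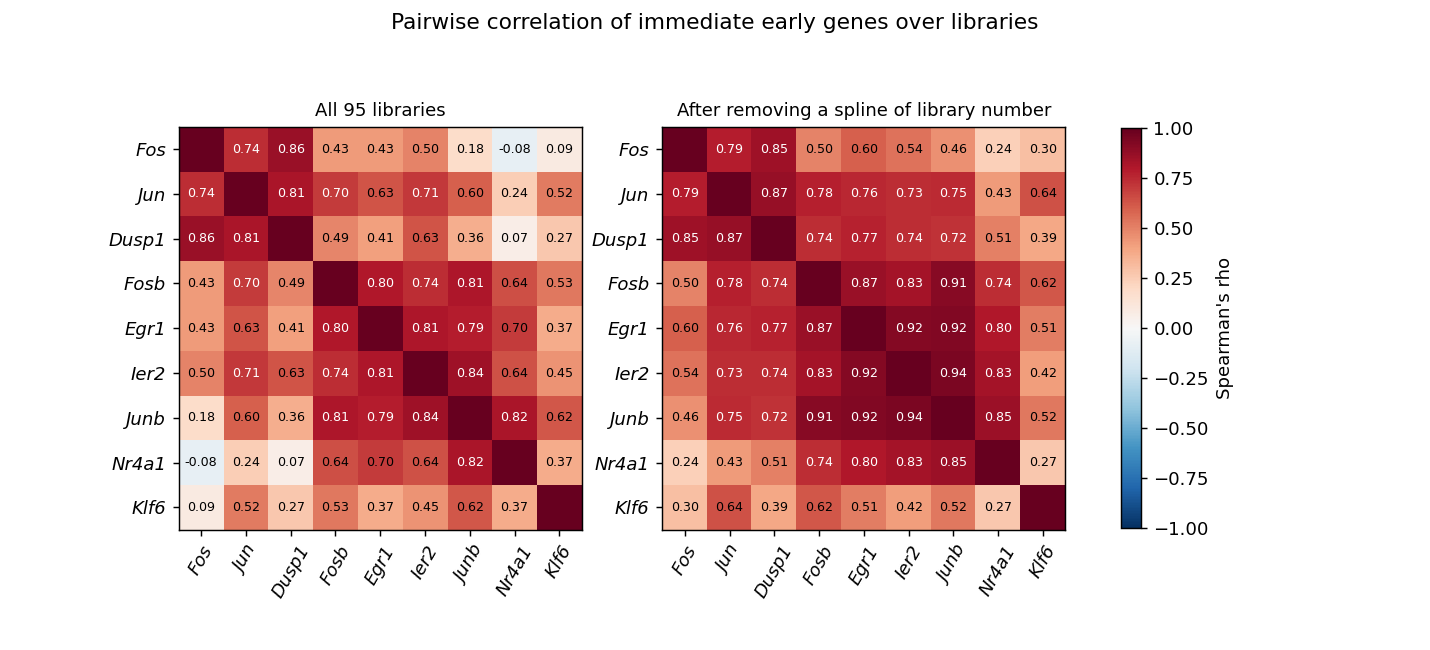
Spearman's rho between the 9 genes over all 95 libraries (left) and after a natural spline of library number was removed (right); the colour scale runs from -1 to 1. The lowest values on the left are those of Fos with Nr4a1, at -0.0832, Dusp1 with Nr4a1 and Fos with Klf6; on the right all pairs are positive and the median is 0.738.

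Over all libraries Fos and Dusp1 stood at one end and Nr4a1 at the other, with Jun between them. Within Fos, Jun and Dusp1 the rho ran from 0.738 to 0.862, while Nr4a1 had a rho of 0.0692 with Dusp1 and of 0.817 with Junb. Jun had a rho of 0.707 with Ier2 and of 0.702 with Fosb, as high as pairs on the side of Nr4a1. In libraries numbered above 50 this distance was smaller. The rho there was 0.767 for Fos with Junb, 0.89 for Dusp1 with Junb and 0.648 for Dusp1 with Nr4a1. It did not vanish. Nr4a1 had a rho of 0.673 with Fos and of 0.472 with Jun there, against 0.786 to 0.905 within Fos, Jun and Dusp1. A principal component analysis of the 9 gave a first component with 62.5% of the variance, on which all 9 had the same sign. The second held 21.3%, with Fos at 0.61, Dusp1 at 0.45 and Jun at 0.30 on one side and Nr4a1 at -0.48 and Junb at -0.26 on the other. The sign of such components says nothing of which libraries are high.

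The distance between Fos and Nr4a1 lay in particular libraries. The log2 of Nr4a1 minus that of Fos was -4.04 in library 67 and 1.69 in library 32, a span of 5.72 log2 units around a median of -2.61. Nr4a1 exceeded Fos in CPM in 7 libraries, numbers 22, 23 and 28 to 32. For Dusp1 minus Fos the difference ran only from -3.19 in library 34 to -1.17 in library 32, a span of 2.02 log2 units. All 7 libraries with Nr4a1 above Fos are numbered 50 or lower.

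**Figure D3:**
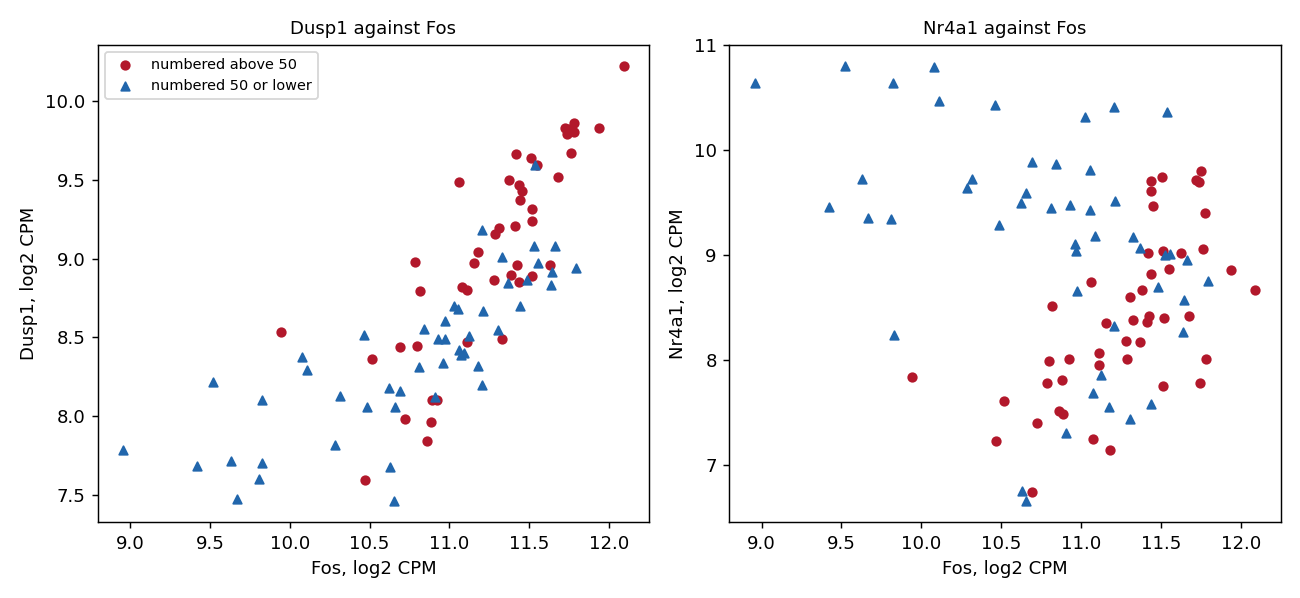
Dusp1 (left) and Nr4a1 (right) against Fos, both axes log2 CPM, for libraries numbered above 50 (circles) and 50 or lower (triangles). Dusp1 rises with Fos in both sets, and the 7 libraries with more Nr4a1 than Fos are all numbered 50 or lower.

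To ask which genes rose as Fos rose, each kept gene was fitted with a slope on the log2 CPM of Fos by edgeR's quasi-likelihood test, with Benjamini-Hochberg adjustment over all genes. The slope is the change in log2 units per log2 unit of Fos. Of the 8 other members 5 rose and 1 fell, against 11.5% of kept genes that rose and 12.1% that fell. Dusp1 had a slope of 0.82 (SE 0.063, adjusted p 1.56e-18), Jun 0.67 (SE 0.07, adjusted p 1.12e-12) and Ier2 0.35 (SE 0.084, adjusted p 0.000833). Egr1 and Fosb had slopes of 0.25, with adjusted p of 0.0165 and 0.0438. Nr4a1 fell, with a slope of -0.45 (SE 0.13, adjusted p 0.00772). Klf6 at 0.15 and Junb at 0.06 did not pass. Fosb did not pass with DESeq2 (adjusted p 0.0579), where 4 members rose, against 12.8%, and without libraries numbered above 90 neither Fosb nor Egr1 passed, leaving 3 genes that rose, against 17.1% of kept genes.

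The slope depended on which libraries were used. In libraries numbered above 50, 8 of 8 members rose with Fos, against 8.16% of kept genes. There Fosb had a slope of 1.70, Egr1 1.33, Jun 1.25, Junb 1.22, Nr4a1 1.18, Dusp1 1.10, Ier2 1.05 and Klf6 0.91. Without libraries above 90 as well, an alternative added after seeing the data, 8 of 8 still rose, with slopes from 1.25 for Klf6 to 1.69 for Junb, against 3.09% of kept genes that rose and 1.81% that fell. In libraries numbered 50 or lower, 2 rose (Dusp1 at 0.56 and Jun at 0.51), against 15.1% of kept genes, and Nr4a1 fell at -0.60, against 13.6%. The difference, tested as an interaction with edgeR after the data were seen, was positive and passed for 8 of 8, against 13% of kept genes with a higher slope above 50. It was largest for Nr4a1 at 1.79 (SE 0.307, adjusted p 3.35e-06) and smallest for Dusp1 at 0.546 (SE 0.126, adjusted p 0.00037). The number 50 is an arbitrary split and not a batch of the labels.

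With a natural spline of library number in the model, 6 of 8 members rose and 0 fell, against 2.87% and 3.32% of kept genes. Jun had a slope of 0.83 there, Dusp1 0.80, Fosb 0.55, Egr1 0.55, Ier2 0.52 and Junb 0.43. Nr4a1 had a slope of 0.12 (SE 0.16, adjusted p 0.722) and Klf6 one of 0.34 (adjusted p 0.143), and neither passed. The negative slope of Nr4a1 was not present in this fit. Library number itself had a positive rho with Dusp1 (0.534) and Fos (0.386), and a negative one with Nr4a1 (-0.371) and Egr1 (-0.289), of adjusted permutation p 0.011 or lower, against 27.8% and 25.7% of kept genes. With 2 of 9 in each direction, these counts do not set the 9 apart from all kept genes. Within libraries numbered above 50 these 4 rho were 0.223, -0.0688, 0.114 and 0.0261, and in those numbered 50 or lower 0.178, 0.26, -0.192 and -0.179.

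**Figure D4:**
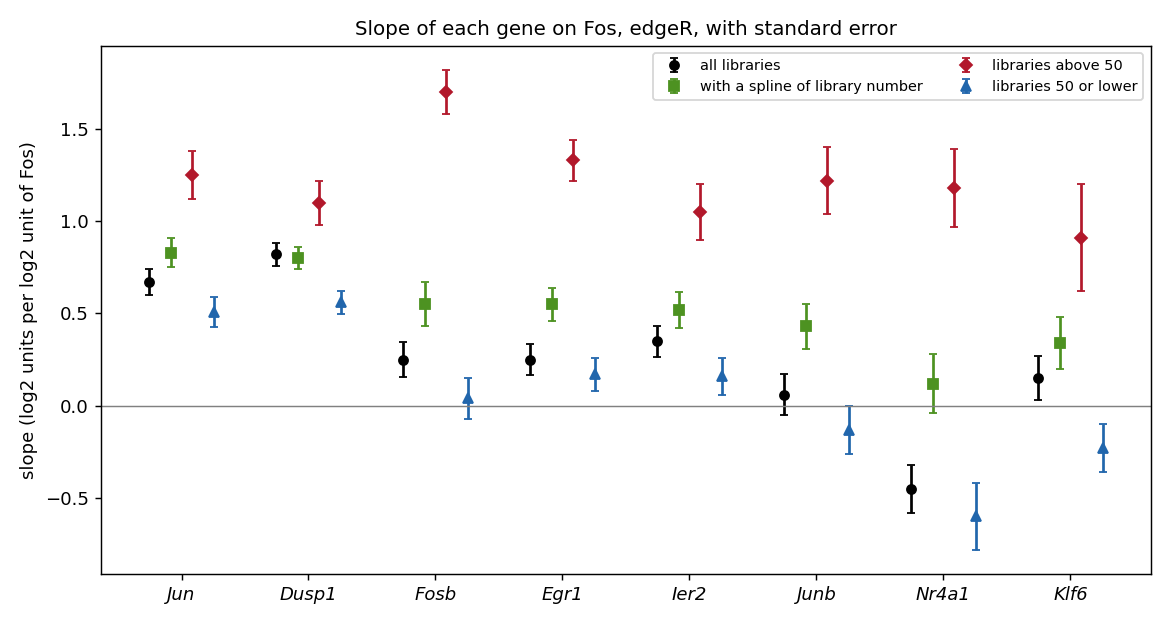
Slope of each gene on Fos (log2 units per log2 unit, vertical axis) with its standard error, from edgeR, in 4 fits. In libraries above 50 all 8 slopes are at or above 0.91, and in those numbered 50 or lower Nr4a1 lies at -0.60.

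The choice of Fos as the axis mattered for the other members too. With Egr1 as the predictor all 8 rose, among them Nr4a1 with a slope of 1.24 (SE 0.15, adjusted p 5.68e-11), against 12.5% of kept genes that rose and 23.4% that fell. Markers of immune cells moved with Egr1 in that fit: 9 of 10 macrophage and 10 of 10 lymphocyte markers fell, with a median slope of -2.14 for the lymphocyte markers. Without libraries above 90, 8 of 8 members again rose with Egr1, against 10.3% of kept genes that rose and 12.2% that fell, while 1 macrophage marker rose and 0 macrophage and 0 lymphocyte markers fell. Of 54 other early-response genes, drawn up with earlier results of these data known, 8 rose and 16 fell with Fos. The 8 of 54 is near the 11.5% of kept genes that rose, and 12.1% of kept genes fell. With Egr1, 41 rose and 3 fell. In libraries numbered above 50, 30 rose and 3 fell with Fos, against 8.16% and 17.8% of kept genes. In those numbered 50 or lower 8 rose and 26 fell, against 15.1% and 13.6%, and the 8 that rose are near that share.

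Of 28 other early-response transcription factors 3 rose with Fos and 12 fell, against 11.5% and 12.1% of kept genes, so the 3 that rose are near that share. Id1, an inhibitor of helix-loop-helix factors, had a slope of 0.61, and the AP-1 genes Fosl1 and Fosl2 had slopes of -1.06 and -0.92. Nr4a3, a relative of Nr4a1, had a slope of -0.74 (SE 0.21, adjusted p 0.00453). Of 26 signalling and RNA decay genes 5 rose and 4 fell, the latter near the 12.1% of kept genes. Those that rose were Socs3, a brake on cytokine signalling, at 0.58 (SE 0.10, adjusted p 4.24e-06), Zfp36, which destabilises AU-rich messages, at 0.51, Btg2 at 0.42, Gadd45g at 0.40 and Tob1 at 0.28. The MAP kinase phosphatase genes Dusp4 and Dusp5 fell, with slopes of -0.82 and -0.56. Several of these calls differed between fits, and the reason was not tested. Fewer kept genes passed in the fit with the spline, 2.87% rising and 3.32% falling. With the spline, Id1, Fosl1, Fosl2, Nr4a3, Dusp4 and Dusp5 had slopes of 0.13, -0.33, -0.26, -0.17, -0.34 and 0.09, and none of these 6 passed. In libraries numbered above 50 Fosl1, Fosl2 and Dusp5 rose with Fos, at 1.35, 1.12 and 1.26, and Id1 fell at -0.53. Socs3, Zfp36, Btg2 and Gadd45g rose with the spline, above 50 and at 50 or lower, and Tob1 with the spline and above 50. Jund, the third Jun family gene, had a slope of -0.12 and did not pass.

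Of 23 kinases and factors that act upstream 3 rose and 4 fell, shares near the 11.5% and 12.1% of kept genes. Creb1 rose at 0.19 (SE 0.043, adjusted p 0.000554), but did not pass with the spline and fell in libraries numbered above 50, at -0.17. Mapk14 fell at -0.19 and had a slope of -0.05 above 50, which did not pass. Of 12 heat shock genes Hspa1b at 1.12 (SE 0.26, adjusted p 0.000561), Hspa1a at 0.99 and Hsph1 at 0.41 rose with Fos, and Bag3 fell at -0.41. Hsph1 also passed with the spline and above 50, Hspa1a and Hspa1b passed in neither, and Bag3 did not pass with the spline and rose above 50, at 0.40. Of 13 NF-kB and cytokine response genes 0 rose and 5 fell, Relb among them at -0.87 (SE 0.14, adjusted p 1.9e-06). Of 17 beta cell genes Foxa2, Pdx1, Isl1 and Nkx6-1 rose and 0 fell, and of these 4 only Nkx6-1 passed above 50. Over the whole list, 6 rose with the spline, against 2.87% of kept genes, and 5 rose above 50, against 8.16%. None fell in these 2 fits. Above 50 without libraries above 90, 1 rose, against 3.09%. Of the 18 acinar, 9 endothelial, 10 fibroblast and stellate, 10 macrophage and 10 lymphocyte genes 0 passed in either direction in the fit over all libraries. In libraries numbered above 50, however, 8 of the 10 macrophage and 10 of the 10 lymphocyte markers fell with Fos, with median slopes of -1.54 and -2.47, and 4 of 10 fibroblast and stellate markers fell, against 17.8% of kept genes. Without libraries above 90, 0 markers of these 3 lists passed there. In libraries numbered 50 or lower, 8 of 18 acinar genes rose, against 15.1% of kept genes, with a median slope of 1.08. There 13 of 13 NF-kB and cytokine response genes fell, against 13.6%. Above 50, 5 of these 13 fell, against 17.8%, and 0 passed without libraries above 90, with a median slope of 0.44. With Egr1 and without libraries above 90, 9 of the 13 rose and 0 fell, against 10.3% of kept genes that rose.

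Of the 15 genes whose pattern was most like that of the 9, by mean rho over the 95 libraries, 9 were on the lists of other early-response genes. Those lists hold 54 of the 15832 kept genes outside the 9. They were drawn up with earlier results of these data known, so the overlap is not independent of the data. Among the 15, Socs3 led at 0.648, followed by Btg2 at 0.632, Atf3, a stress-response factor, at 0.627, and Zfp36 at 0.599. Klf4, Gadd45g, Jund and Ppp1r15a came next, at 0.596 to 0.586. At the other end, Klhl42 had -0.469. Over lists, the median of this mean rho was 0.451 for the other early transcription factors and 0.444 for the signalling genes, and 0.354 for the NF-kB and cytokine response list, against -0.0102 over all kept genes outside the 9, 0.061 for heat shock genes and -0.202 for mitochondrially encoded genes. The nearest single gene to Junb was Ppp1r15a (rho 0.912), to Nr4a1 Dusp5 (0.9), to Klf6 Myd88 (0.872), to Fosb Atf3 (0.845), to Ier2 Btg2 (0.838), to Egr1 Irs2 (0.82) and to Jun Socs3 (0.756).

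The 9 genes were also set against library measures, with 81 relations in all. Library total passed with 0 of the 9 by Spearman's rho, and with 0% of kept genes in either direction. The mitochondrially encoded share had a negative rho that passed with 4 genes, against 17.3% of kept genes: Ier2 (-0.415), Klf6 (-0.413), Junb (-0.37) and Egr1 (-0.274, adjusted p 0.0245). By Pearson's r, Ier2, Klf6, Junb and Jun passed and Egr1 did not (adjusted p 0.106). The share of hormone transcripts went with Klf6 at a rho of -0.435 (r -0.484, permutation p 1e-05 for both), and r was -0.502 without libraries 54 and 55. The rho was -0.56 above 50 and -0.302 at 50 or lower. Jun passed as well, at -0.287, and 18.2% of kept genes were negative. The hormone share had a positive rho of 0.347 with Nr4a1 (adjusted permutation p 0.00358), against 20% of kept genes. Klf6 also had a rho of 0.31 with the acinar share (adjusted permutation p 0.0113), against 14.7% of kept genes, and of -0.323 with the endothelial share, against 13.8%. Nr4a1 had a rho of -0.251 with the acinar share (adjusted permutation p 0.0474), against 16.4%, and did not pass by r. For the hormone, acinar and endothelial shares, the number of the 9 that passed was near these shares of kept genes and does not set the 9 apart.

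Shares of immune markers passed with some of the genes by rank and with others by Pearson's r. The macrophage share had a rho that passed with Dusp1 (0.481), Jun (0.313), Klf6 (0.289), Junb (0.278) and Ier2 (0.276), against 17.8% of kept genes. By Pearson's r none of these 5 passed, and Egr1 (-0.356) and Fosb (-0.31) did. Without libraries 97 and 100 the r of Egr1 was -0.208 and that of Fosb -0.161. Within libraries numbered above 50 the rho of Dusp1 with the macrophage share was 0.346, and in those numbered 50 or lower it was 0.163. The lymphocyte share had a rho that passed with Dusp1 (0.424) and Jun (0.244), and 2 of 9 is near the 17.6% of kept genes. Without libraries above 90 the rho with the macrophage share was 0.438 for Dusp1, 0.33 for Jun, 0.263 for Junb, 0.228 for Ier2 and 0.157 for Klf6, and that with the lymphocyte share was 0.344 for Dusp1 and 0.218 for Jun. Tests of these values were not run. The part of these shares in the levels of the 9 genes was not tested.

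**Figure D5:**
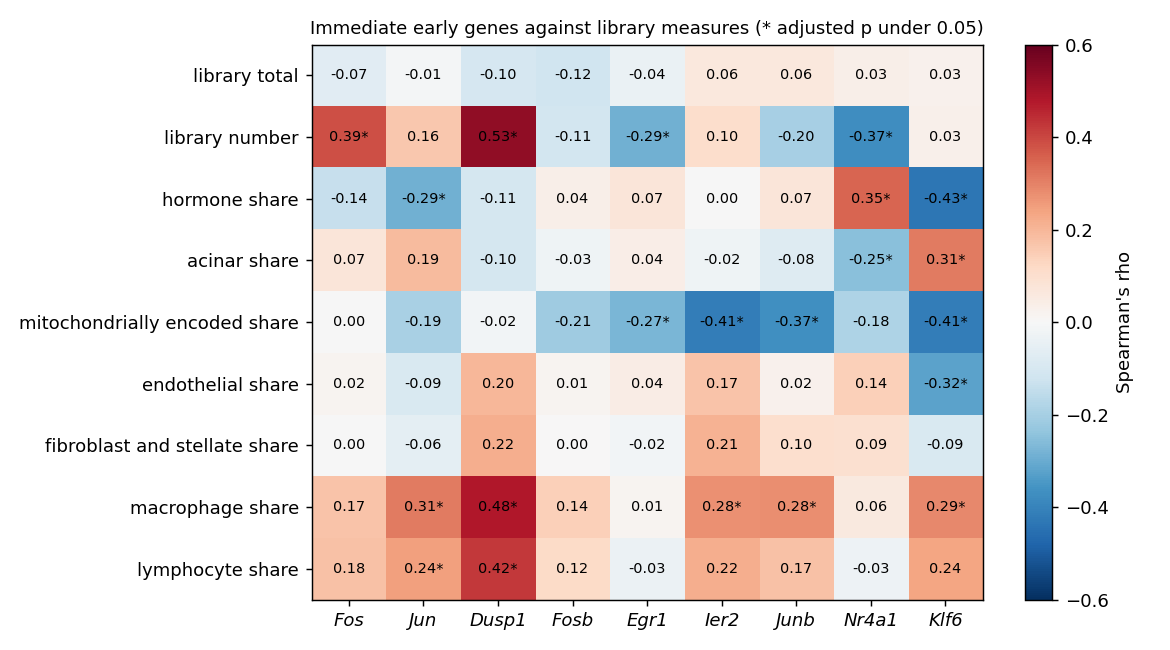
Spearman's rho of each gene (columns) with each library measure (rows) over 95 libraries; an asterisk marks an adjusted p under 0.05. Library total has 0 asterisks, and Klf6 has the strongest negative relation with the hormone share, at -0.435.

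Some values carry a limit of annotation. Junb overlaps Prdx2 on the opposite strand by 351 bases, and Dusp1 overlaps Ergic1 by 640 bases. Junb had a median of 957 CPM, against 78.8 CPM for Prdx2, and Dusp1 one of 415 CPM, against 94.2 CPM for Ergic1. Jun overlaps its antisense gene Junos by 689 bases, with a median of 0.55 CPM for Junos. Use of strand in the counting is not given in the sources used here, so reads of these partners cannot be told apart. Of the 31-base words of each gene, read on the transcript strand only, 0% were shared with another gene, except for Fosb at 0.0315%. Words that match a gene on the opposite strand were not counted, so the overlaps above do not enter these percentages.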

How the data were processed

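Estimated counts for 20638 genes in 95 islet libraries were deposited by the authors without normalization; 67.7% of cells were whole numbers to within 1e-06. A second deposited table holds the authors' variance-stabilised values, on a scale close to log2. Per the submitters' processing notes, GRCm38 and DESeq2 were used, with no role given; the aligner, counter and annotation release are not given in the sources used here. Per the labels' protocols, poly(A) RNA was captured after a column extraction with a DNase step and ERCC controls were spiked in (0 rows in the table).

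Counts were rounded to whole numbers. Genes with 1 CPM in at least 10 libraries were kept (15841). Factors of edgeR 4.0.16 ran from 0.46 to 1.29, and log2 CPM used a prior count of 2. Slopes were fitted with edgeR's quasi-likelihood test over all kept genes. Correlations used 100000 permutations, two-sided, with Benjamini-Hochberg adjustment over all kept genes per member or measure. DESeq2 1.42.0 was an alternative. Overlaps and exon lengths came from GENCODE M21. On simulated counts over 15841 genes, slopes of 0.5 were recovered for 50 of 50 genes, slopes of 0.25 for 31 of 50, and 7 of 15641 unchanged genes were called. The simulated libraries were independent and every gene had the same dispersion. In the data neighbouring libraries were alike and the spread differed between genes, so these rates do not carry over to them.

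The labels give no groups, so all libraries stayed unassigned and no groups were compared. Members and lists were chosen with earlier results of these data known. Named genes are every member, in each list the genes with the 5 largest and 3 smallest slopes and the highest median, the 15 highest and 5 lowest by mean rho with the 9, and the nearest gene to each member; not all are printed.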

Additional observations from a re-analysis of the deposited data

How the results depend on the processing

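The median rho over pairs was 0.738 with a spline of library number, 0.792 in libraries numbered above 50 and 0.499 in those numbered 50 or lower. It was 0.566 to 0.639 under the other settings. In libraries numbered above 50, 8 members rose with Fos, against 8.16% of kept genes, and at 50 or lower 2 rose, against 15.1%. Without libraries numbered above 90, 3 rose, against 17.1%. Without the 10 libraries with the lowest totals, 3 rose, against 9.19%. With Egr1 as predictor 8 rose, against 12.5%. Kept genes rising numbered 455 and falling 526 with the spline, and 3709 fell with Egr1. Other early-response genes rising numbered 30 above 50 and 41 with Egr1, against 8.16% and 12.5% of kept genes. Members with a coefficient of variation above 50% numbered 4 in libraries above 50, where 3752 of 15841 kept genes exceeded it. At 50 or lower there was 1, where 2810 of 15841 did, and that count does not set the 9 apart. In 2 settings added after seeing the data, above 50 and with Egr1, libraries above 90 were left out. There 8 and 8 members and 34 and 45 other early-response genes rose, against 3.09% and 10.3% of kept genes. In the first, 489 kept genes rose and 286 fell. By slope, Nr4a1 changed sign with the spline (0.12) and above 50 (1.18, or 1.53 without libraries above 90), Klf6 at 50 or lower (-0.23) and without libraries above 90 (-0.04), and Junb in the same 2 settings (-0.13 and -0.06). The cause was not tested. No paired analysis was possible because the labels give no groups. The lowest level of these genes in any library was 25.9 CPM. Library total passed with 0 of the 9 genes by Spearman's rho. Without the 10 libraries with the lowest totals, the edgeR slopes of Fosb (adjusted p 0.103) and Egr1 (adjusted p 0.064) on Fos did not pass. Beyond these values, whether depth had a part in these results was not tested.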
